A study of Saccharomyces cerevisiae with 164 samples.

Results

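The 8 genes described here belong to the iron regulon of Saccharomyces cerevisiae, the set of genes that budding yeast turns on when iron is scarce. They were taken by systematic name: FET3 (YMR058W), FTR1 (YER145C), FIT1 (YDR534C), FIT2 (YOR382W), FIT3 (YOR383C), ARN1 (YHL040C), SIT1 (YEL065W) and TIS11 (YLR136C). All 8 were measured among 6692 features in 98 full-length RNA-seq libraries, and 7 among 5013 features in 66 3′-end RNA-seq libraries. FIT1 was not analysed in the 3′-end libraries. Every strain was MATa and carried delta(hht-hhf1) and delta(hht2-hhf2), the deletions of both chromosomal H3-H4 gene pairs, with leu2, ura3, trp1 and his3+ markers. Histone H3 came from a pair of centromeric plasmids, TRP1-marked for H3X (L127A, L131V) and LEU2-marked for H3Y (L110I, A111W, L131I), which are built to pair with each other and not with themselves. A substitution on the H3X or the H3Y plasmid alone gave asymmetric strains, a substitution on both gave symmetric strains, and the pseudo-wild-type carried the plasmids with no further substitution. The 21 mutants comprised 13 with symmetric and asymmetric strains and 8 with asymmetric strains alone. The strain label of the symmetric K18Q libraries names K18R plasmids but gives the allele as K18Q. These libraries were kept as K18Q, as their titles say. All cells were grown in rich glucose medium (YEPD) to mid-log phase.

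In yeast, low iron sends the transcription factor Aft1 to promoters of the iron regulon, where it recognises a short element with the core CACCC. The products bring iron in by parallel routes. Fet3, a multicopper oxidase, and Ftr1, an iron permease, form the high-affinity reductive uptake complex of the plasma membrane. Fit1, Fit2 and Fit3 are mannoproteins of the cell wall that help hold iron-siderophore complexes there, and Arn1 and Sit1 are transporters of such complexes. Tis11, also named Cth2, binds AU-rich elements in messenger RNAs of iron-using proteins and promotes their decay.

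The Aft1 element is shown first because it is the sequence that the 8 genes share and that the gene names alone do not show. The letters TGCACCC, which contain GCACCC and CACCC, were searched on both strands of the 500 bases before each start codon in the R64 genome. All 8 genes held at least 1 match. There were 15 matches in all, 8 on the strand of the gene and 7 on the other, between 125 and 365 bases before the start codon. Of 6006 such windows over all genes, 140 (2.33%) held TGCACCC, 7.63% held GCACCC and 33.5% held CACCC. FIT2 held 4 matches, FTR1, FIT1, FIT3 and TIS11 held 2 each, and FET3, ARN1 and SIT1 held 1 each. The 9 sites printed give 1 site per gene, with a second for FIT2 that lies next to the first, as 27 bases on the strand that reads TGCACCC, with the motif in capitals.
FET3, chrXIII:388561-388587: tcttcaaaagTGCACCCatttgcaggt
FTR1, chrV:461899-461925: cgtagatgaaTGCACCCgatttctaag
FIT1, chrIV:1505066-1505092: ttcattttttTGCACCCtttcctagaa
FIT2, chrXV:1059255-1059281: tttaaaacaaTGCACCCtaagttcaaa
FIT2, chrXV:1059272-1059298: taagttcaaaTGCACCCcccctcgccc
FIT3, chrXV:1061223-1061249: cccattttttTGCACCCtttcctagaa
ARN1, chrVIII:21215-21241: tttatcaaaaTGCACCCataaaagcag
SIT1, chrV:27459-27485: cgaaccagatTGCACCCtcaaatgtgt
TIS11, chrXII:416891-416917: cgccgcaaaaTGCACCCacattaaaga

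The printed FIT1 and FIT3 sites, 182 and 184 bases before their start codons, share an unbroken run of 25 bases, cattttttTGCACCCtttcctagaa. The ARN1 and TIS11 sites share 13 bases, caaaaTGCACCCa. The printed ARN1 site and both FIT2 sites lie inside the transcript features used for the 3′-end counts. A match is a stretch of letters and not a measured binding site.

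FIT2 and FIT3 lie side by side on chromosome XV and face each other, FIT2 at 1059531 to 1059992 on the forward strand and FIT3 at 1060441 to 1061055 on the reverse strand. FET3 lies on chromosome XIII (388822 to 390732, forward) and FTR1 on chromosome V (460526 to 461740, reverse). SIT1 lies on chromosome V (27657 to 29543, forward), ARN1 on chromosome VIII (19088 to 20971, reverse), FIT1 on chromosome IV (1503314 to 1504900, reverse) and TIS11 on chromosome XII (415801 to 416658, reverse). These are coding coordinates in R64.

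The 3′-end libraries came from batch 10 (R2K, K36Q and K37Q) and batch 11 (K14R, K18R and K56R), each mutant strain having 3 libraries and the pseudo-wild-type 6 per batch. In full-length batches 1 to 9 there were 56 strains, 17 of them with 1 library, 38 with 2 and the pseudo-wild-type with 5. A 3′-end library held between 750551 and 5156160 counts and a full-length library between 542727 and 21573351, so that TIS11, the least abundant member in the 3′-end data, rested on 27 to 250 counts per library and FIT1 on 7 to 783. Values are CPM, counts scaled to a common library total, after TMM scaling, which sets the libraries to a common level over most genes. In 5 libraries that scaling factor stood apart. It was 0.737 in K37Q H3X replicate 3 and 0.631 in symmetric K18R replicate 5 of the 3′-end data, against 0.844 to 1.16 in the rest. In the full-length data it was 0.536 in symmetric K14R replicate 2, 0.561 in K18Q H3X replicate 1 and 0.762 in symmetric S10A replicate 2, against 0.809 to 1.15 in the rest. Calls that rest on them are given with and without them. Full-length pseudo-wild-type replicates 1, 2 and 3 agreed almost to counting noise, as did symmetric K56R 3′-end replicates 3 and 4. The chi-square per degree of freedom between their counts was 1.14 to 2.69 and 1.59. Some other 3′-end pairs also lay below 2.69 and were not summed, among them symmetric K14R replicates 3 and 5 (2.42). The 3 pseudo-wild-type libraries entered the full-length tests and spreads as separate libraries. Those of batches 3 and 4 were left out as an alternative, and the K56R pair was also summed as an alternative. The a-cell genes MFA1, MFA2 and STE2 were expressed in the 3′-end libraries, with medians of 29.5, 208 and 184 CPM. The alpha-factor genes MF(ALPHA)1 and MF(ALPHA)2 had medians of 1.42 and 0.610 CPM, as the MATa label has it. STE3, also an alpha-cell gene, did not share that low level. Its median of 43.4 CPM was above that of MFA1. In the full-length libraries the STE3 median was 18.9 CPM and the MFA1 median 101 CPM.

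The 8 genes differed widely in level. Per kilobase of feature in the full-length libraries, FET3 was the most abundant, with a median of 330 CPM per kilobase over 98 libraries (134 to 1099). FIT3 followed with 286 (107 to 1966), then FTR1 with 188 (117 to 645), SIT1 with 161 (69.2 to 246) and FIT2 with 117 (38.0 to 990). ARN1 had 79 (47.6 to 274), TIS11 34.5 (9.72 to 87.8) and FIT1 10.6 (4.28 to 54.8). The order of the top 5 was not fixed, since each of them exceeded the next in 61 to 78 of the 98 libraries. ARN1 exceeded TIS11 in 97 and TIS11 exceeded FIT1 in 96. FIT1, a mannoprotein gene like FIT3, was thus the lowest of the 8. FIT2 and FIT3 had the largest ratios of highest to lowest library, 26.0 and 18.4, both through symmetric K14R replicate 2. Without the 3 full-length libraries that stand apart, the ratios over the other 95 were 8.70 for FIT2, 9.33 for FIT3, 9.03 for TIS11 and 9.00 for FIT1, and the highest values became 559 for FET3, 995 for FIT3, 331 for FTR1 and for FIT2, 201 for ARN1 and 38.5 for FIT1.

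**Figure D1:**
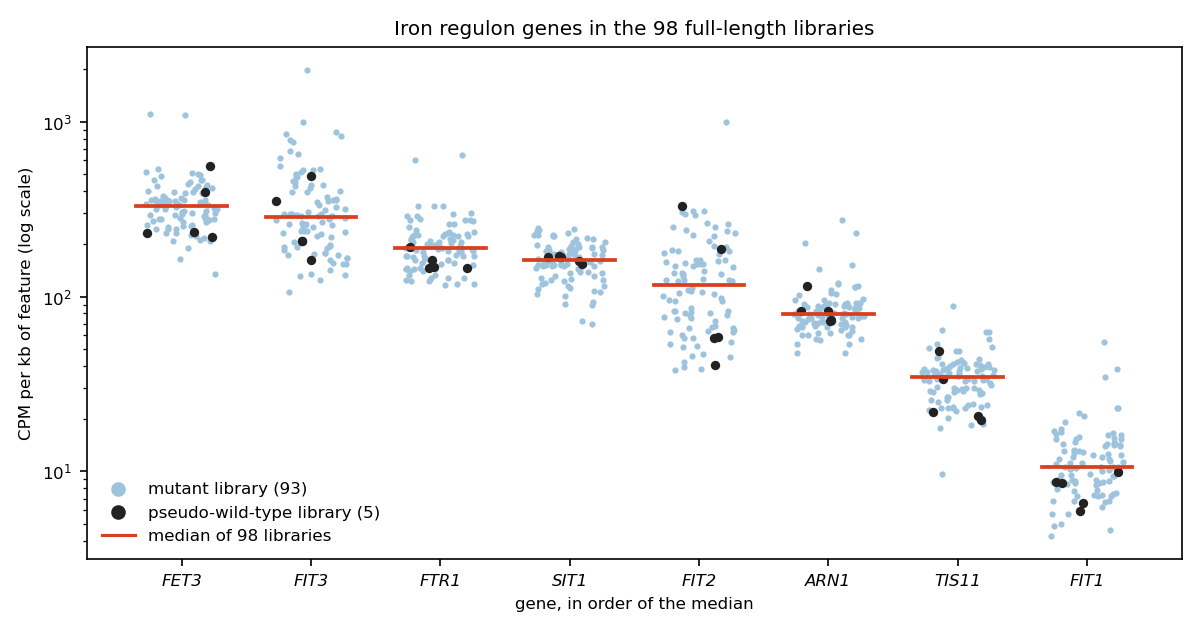
Level of each member per kilobase of feature in the 98 full-length libraries (y axis, TMM-normalised CPM per kilobase, log scale), with 1 point per library, pseudo-wild-type libraries in black and a line at the median. FET3 has the highest median (330) and FIT1 the lowest (10.6), and the highest FIT2 and FIT3 points (990 and 1966) are symmetric K14R replicate 2.

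The spread among pseudo-wild-type libraries, which enter many of the comparisons, differed between members. In the 6 batch 10 libraries FIT3 ran from 140 to 883 CPM with a median of 240, and FIT2 from 97.1 to 229 with a median of 126. The SD of log2 CPM of FIT3 there was larger than that of 99.9% of genes, and that of FIT2 larger than that of 97.4%. Replicate 12 was the highest of the 6 for FET3, FIT2, FIT3, SIT1 and TIS11. FTR1 varied less in the same libraries, from 229 to 295 CPM, with a spread above that of 22.9% of genes. In batch 11 the ranges were narrower, 125 to 246 CPM for FIT3 and 133 to 221 for FIT2. In the 5 full-length pseudo-wild-type libraries FIT2 was 27.1, 26.96 and 18.9 CPM in batches 2, 3 and 4 and 86.8 and 153 CPM in batch 8, so that the batch 8 libraries were the high ones. SIT1 was 303, 317 and 289 CPM in those 3 libraries and 319 and 320 CPM in batch 8, a spread larger than that of 1.52% of genes.

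Each gene was tested with edgeR's quasi-likelihood test in a fit of all genes, with p-values adjusted by Benjamini-Hochberg over all genes and a threshold of 0.05, and fold changes are given on the log2 scale with their standard errors. In bulk RNA fewer cells that express a gene and less RNA per cell cannot be told apart. The labels do not say that replicates came from separate cultures, so these p-values measure the spread between these samples. Where groups are said not to overlap, this only describes their libraries. No share of all genes without overlap is given beside it. In the 3′-end data the 6 symmetric strains gave 42 member tests against the pseudo-wild-type, of which 4 passed, and the asymmetric strains (the mean of H3X and H3Y) gave 3 of 42. Symmetric against asymmetric strains gave 0 of 42 with edgeR, with 7 at an unadjusted p under 0.05 and 2 with DESeq2. H3X against H3Y strains gave 0 of 42 with edgeR, with 5 at an unadjusted p under 0.05 and 0 with DESeq2. Symmetric strains of the same batch against each other gave 9 of 42. All calls but 1 fell in batch 11. Among all genes, symmetric strains against the pseudo-wild-type had 0% to 0.1% called in batch 10 and 1.81% to 36.2% in batch 11. Asymmetric strains had 0% to 41.5% and 0% to 29%, and symmetric strains against each other 0.0803% to 3.73% and 7.98% to 34.2%. The pooled counts alone therefore do not set the members apart from other genes. A test over all 10 strains of a batch called FIT3, FIT2, SIT1, FET3 and FTR1 in batch 11, where 47.2% of all genes passed, with edgeR adjusted p of 1.19e-06, 0.000540, 0.00768, 0.0155 and 0.0253. The same test called 0 of the 7 members in batch 10, where 29.4% of all genes passed, with 0 at an unadjusted p under 0.05. DESeq2 was not run for that test.

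The cell-wall mannoprotein genes FIT2 and FIT3 were higher in symmetric K14R, in which lysine 14 of both H3 copies is arginine. In the 3′-end libraries FIT3 was 344, 383 and 351 CPM in the 3 symmetric K14R libraries and 125 to 246 CPM in the 6 pseudo-wild-type libraries, with a median of 170. Every symmetric K14R library lay above every pseudo-wild-type library. The mean was 359 ± 20.8 CPM (SD, n = 3) against 177 ± 45.7 (SD, n = 6), a log2 change of 1.01 ± 0.14 (SE, edgeR adjusted p = 4.48e-05). It kept its direction and its call in 15 of 15 alternatives. FIT2 was 228, 274 and 247 CPM in symmetric K14R and 133 to 221 CPM in the pseudo-wild-type, with a median of 169. The groups did not overlap, and FIT2 rose by 0.54 ± 0.17 (log2, edgeR adjusted p = 0.0130). Without symmetric K14R replicate 4 the change was 0.47, with an edgeR adjusted p of 0.0651, and under plain library totals it was 0.85. These were 2 of 7 members called where 36.2% of all genes were called, a share of the members below that of all genes. The other 5 members gave -0.28 to 0.18. Among them ARN1 had the lowest value, 88.6, 91.1 and 88.2 CPM against 96.5 to 129, with no overlap and an edgeR adjusted p of 0.0713.

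With K14R on a single copy, FIT3 differed between the plasmids that carried it. It was 217, 347 and 283 CPM in the H3X strain and 193, 177 and 211 CPM in the H3Y strain. All H3X libraries lay above all H3Y libraries, but the H3X against H3Y difference of 0.54 ± 0.17 had an edgeR adjusted p of 0.276 and was not called. In that comparison 0.464% of all genes and 0 of the 7 members passed with edgeR and 0 with DESeq2, and 3 members (FIT3, FIT2 and SIT1) had an unadjusted p under 0.05. The mean of both asymmetric strains exceeded the pseudo-wild-type by 0.39 ± 0.12 (edgeR adjusted p = 0.0155), the 1 member called where 29% of all genes were called. Without K14R H3X replicate 4 it was 0.31, with an edgeR adjusted p of 0.0541, and with each library's slope on feature length in the fit it was 0.40 (adjusted p = 0.0963). Symmetric against asymmetric K14R gave 0.62 ± 0.14 for FIT3, which edgeR did not call (adjusted p = 0.0910) and DESeq2 did (0.61, adjusted p = 0.0250). In that comparison edgeR called 0 of 7 members and 0.0403% of all genes, and 2 members, FIT3 and FIT2, had an unadjusted p under 0.05. The order of FIT3 over the 10 strains of batch 11 began with symmetric K14R (359 ± 20.8 CPM), K14R H3X (282 ± 64.9), symmetric K56R (203 ± 25.3) and K14R H3Y (194 ± 16.7). The remaining 6 strains lay between 142 and 179 CPM, neighbours differing by less than their spread.

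**Figure D2:**
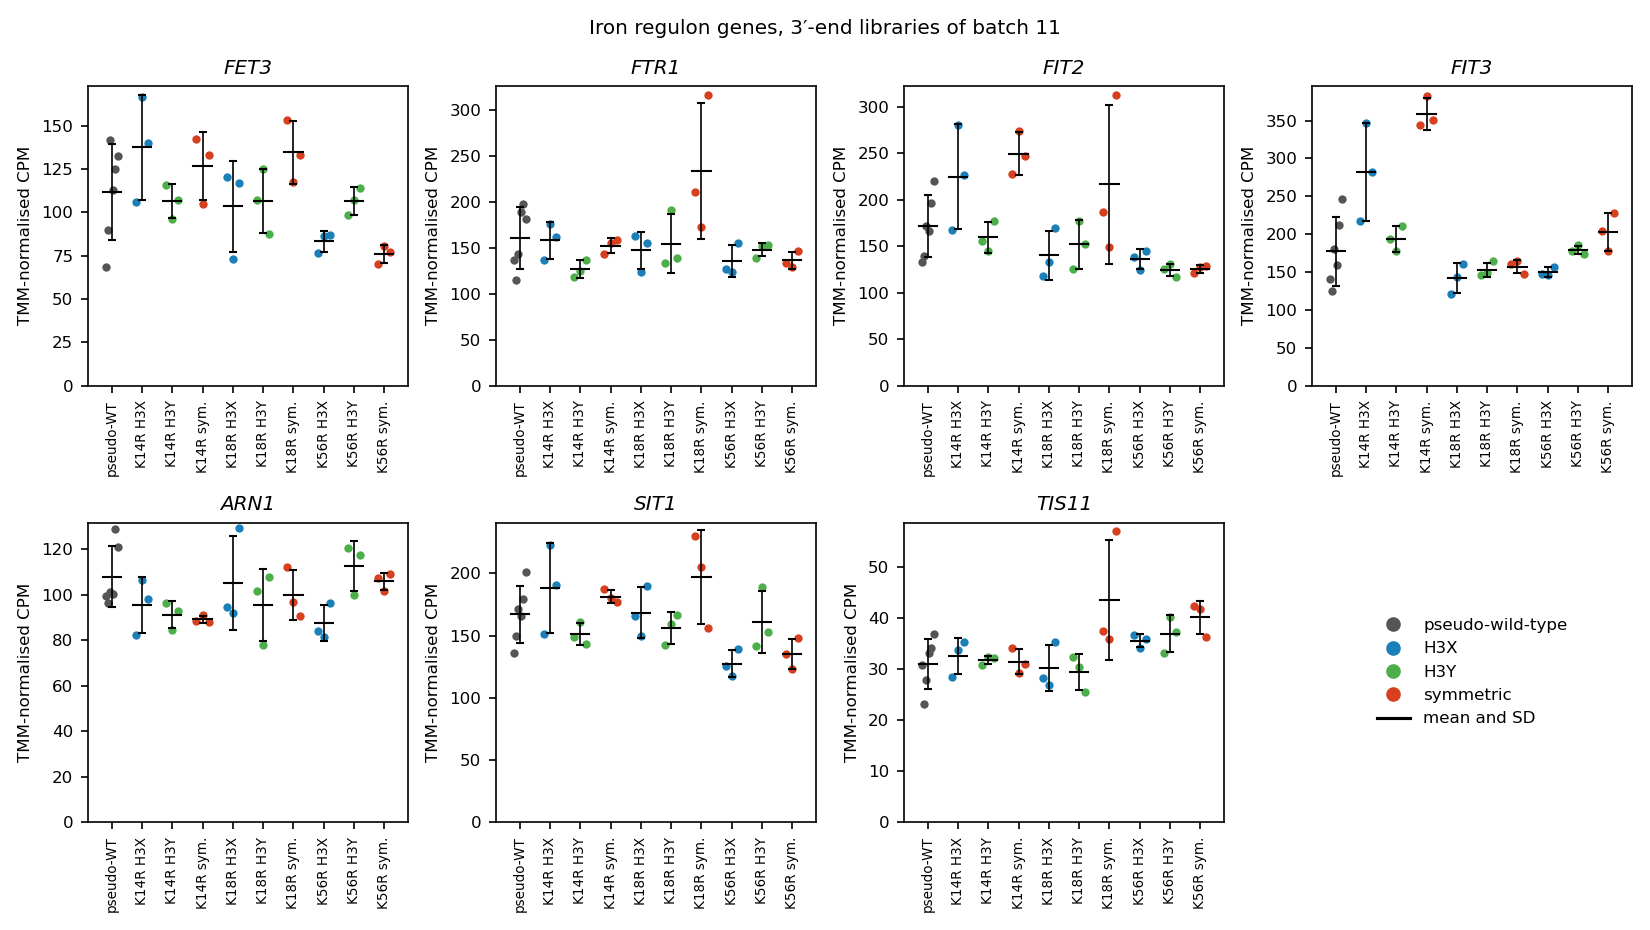
TMM-normalised CPM of the 7 members in the 33 3′-end libraries of batch 11 (y axis), 1 panel per gene and 1 column per strain, with points for libraries and bars for the strain mean and SD. The 3 symmetric K14R libraries of FIT3 sit at 344 to 383 CPM, above all 6 pseudo-wild-type libraries (125 to 246).

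In symmetric K56R, in which lysine 56 of both H3 copies is arginine, FIT2 was at the low end. It was 121, 128 and 129 CPM, below all 6 pseudo-wild-type libraries. Its change of -0.45 ± 0.18 was not called by edgeR (adjusted p = 0.0631) but was by DESeq2 (-0.48, adjusted p = 0.0405). With edgeR symmetric K56R had 2 of 7 members called where 23.9% of all genes were called (FET3 and TIS11, described with their groups). DESeq2 called 3. FIT2 fell by 0.40 ± 0.14 in the K56R asymmetric strains (edgeR adjusted p = 0.0416), at 139, 124 and 145 CPM with H3X and 125, 130 and 117 CPM with H3Y. It was the 1 member called there, where 22.9% of all genes were called. The H3X libraries of FIT2 overlapped the pseudo-wild-type range. The call was lost, with changes of -0.43 to -0.31, on leaving out pseudo-wild-type replicate 17, 18 or 19 or any 1 of the mutant libraries except H3X replicate 5, as well as under plain library totals (-0.22) and with the slope on feature length (-0.24). Set directly against each other, symmetric K14R exceeded symmetric K56R in FIT2 by 0.99 ± 0.20 (edgeR adjusted p = 0.00219) and in FIT3 by 0.82 ± 0.17 (adjusted p = 0.00231), with no overlap between the libraries of either gene. With FET3 these were 3 of 7 members called where 7.98% of all genes were called, and both FIT calls held in all 12 alternatives.

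Symmetric K18R had FIT3 at 160, 164 and 148 CPM, within the pseudo-wild-type range. FIT2 was 187, 149 and 312 CPM there, and the high value came from replicate 5, which stands apart by its scaling factor. Its change was 0.26 with that library and -0.03 without it. With edgeR 0 of 7 members were called in symmetric K18R against the pseudo-wild-type, where 1.81% of all genes were called. DESeq2 also called 0, and 3 members (FTR1, SIT1 and TIS11) had an unadjusted p under 0.05. Symmetric K14R exceeded symmetric K18R in FIT3 by 1.18 ± 0.17 (edgeR adjusted p = 0.000232) in a comparison that called 34.2% of all genes, again with no overlap and in all 12 alternatives.

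For the reductive uptake pair, FET3 was lowest in K56R. FET3 was 70.4, 80.7 and 77.3 CPM in symmetric K56R and 68.5 to 142 CPM in the pseudo-wild-type, with a median of 119. One pseudo-wild-type library, replicate 14, was as low as the mutant and the other 5 were higher. FET3 fell by 0.56 ± 0.18 (log2, edgeR adjusted p = 0.0287), and the call was lost on leaving out any 1 of the 3 K56R libraries (-0.62 to -0.52), pseudo-wild-type replicate 18 or replicate 19 (-0.52 and -0.51), under plain library totals (-0.34, adjusted p = 0.149), with the slope on feature length (-0.45, adjusted p = 0.121) and with replicates 3 and 4, which agreed almost to counting noise, summed (-0.58, adjusted p = 0.0650). In the K56R asymmetric strains FET3 was 76.4, 86.6 and 86.8 CPM with H3X and 98.4, 107 and 114 CPM with H3Y. The H3X libraries were all lower than the H3Y libraries, and the difference of -0.36 ± 0.20 was not called (edgeR adjusted p = 0.564). Of the 7 members, 0 were called between K56R H3X and H3Y with edgeR or DESeq2, where 2.88% of all genes were called, and ARN1 and SIT1 had an unadjusted p under 0.05. Symmetric against asymmetric K56R called 0 of 7 members with edgeR or DESeq2, where 2.18% of all genes were called, and FIT3 had an unadjusted p under 0.05. FET3 was lower in symmetric K56R than in symmetric K14R, by 0.74 ± 0.21 (edgeR adjusted p = 0.0243, lost in 5 of 12 alternatives), and than in symmetric K18R, by 0.82 ± 0.21 (adjusted p = 0.00579), each without overlap.

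FTR1, which encodes the permease of the same complex, was 134, 129 and 146 CPM in symmetric K56R, within the pseudo-wild-type range of 115 to 197 CPM. Its change of -0.24 ± 0.16 was not called (edgeR adjusted p = 0.269). Its highest values were in symmetric K18R, at 211, 173 and 317 CPM. Replicates 3 and 5 lay above every pseudo-wild-type library and replicate 4 within their range. The change of 0.48 ± 0.16 against the pseudo-wild-type was not called by edgeR (adjusted p = 0.109), nor was the 0.58 ± 0.16 against the K18R asymmetric strains (adjusted p = 0.106), which DESeq2 called (0.59, adjusted p = 0.0297). Without K18R replicate 5 these edgeR values were 0.25 (adjusted p = 0.901) and 0.36 (adjusted p = 0.999). In the comparison with the asymmetric strains 0 members and 0% of all genes passed with edgeR, and 4 members (FTR1, TIS11, FIT2 and SIT1) had an unadjusted p under 0.05. Symmetric K18R exceeded symmetric K56R in FTR1 by 0.72 ± 0.18 (edgeR adjusted p = 0.00546). Of 7 members 4 were called there (FET3, FTR1, FIT2 and SIT1), where 26.4% of all genes were called. Symmetric K18R also exceeded symmetric K14R in FTR1, by 0.56 ± 0.18 (edgeR adjusted p = 0.0205). That call was lost without K14R replicate 3 or without K18R replicate 5. Without K18R replicate 5 the K14R against K18R value was -0.33 (edgeR adjusted p = 0.157). With each library's slope on feature length in the fit, that value turned to 0.06, and under plain library totals it was -0.18 (adjusted p = 0.308). The FIT2 call between K18R and K56R (0.71 ± 0.21, adjusted p = 0.0131) was lost without the same library (0.43, adjusted p = 0.105). Without it the FET3, FTR1 and SIT1 calls between K18R and K56R stood at 0.84, 0.50 and 0.70 (adjusted p = 0.0120, 0.0454 and 0.00220), and the FIT3 call between K14R and K18R at 1.14 (0.00106). Under plain library totals all 4 calls between K18R and K56R were lost, at 0.46 for FET3, 0.30 for FTR1, 0.28 for FIT2 and 0.23 for SIT1, and with the slope on feature length the first 3 were lost, at 0.66, 0.18 and 0.27.

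Of the siderophore transporters, SIT1, which takes up ferrioxamine-type siderophores, changed in level with K56R in the full-length data, and its 3′-end values lay on the same side. In the 3′-end libraries it was 135, 123 and 148 CPM in symmetric K56R against 136 to 201 CPM, with 2 of 3 libraries below every pseudo-wild-type library. Its change of -0.31 ± 0.13 was not called by edgeR (adjusted p = 0.0754) but was by DESeq2 (-0.33, adjusted p = 0.0452). Symmetric K18R exceeded symmetric K56R by 0.58 ± 0.15 (edgeR adjusted p = 0.00500), at 230, 205 and 156 CPM, with no overlap. Without K18R replicate 3 that difference was 0.46 (adjusted p = 0.0544). The median change of the 12 genes on each side of SIT1 in symmetric K56R was -0.20, and its part in the SIT1 value was not tested. ARN1, a transporter of ferrichrome-type siderophores, gave no call in any 3′-end comparison. It had the narrowest range of the 7 members in batch 11, from 77.7 to 129 CPM over 33 libraries.

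TIS11 was the 1 member that edgeR called higher in symmetric K56R. FIT3 there was 204, 177 and 228 CPM, within the pseudo-wild-type range of 125 to 246 CPM. It was called under plain library totals (0.41, adjusted p = 0.0496) and not as reported. TIS11 was 42.2, 41.8 and 36.3 CPM against 23.2 to 36.8 CPM in the pseudo-wild-type, with a median of 31.9. Replicates 3 and 4 lay above all pseudo-wild-type libraries and replicate 5 just within their range. TIS11 rose by 0.37 ± 0.13 (edgeR adjusted p = 0.0355), and the call was lost with DESeq2 (0.34, adjusted p = 0.0652), with RLE factors (0.34, adjusted p = 0.0526), with replicates 3 and 4 summed (0.33, adjusted p = 0.112), and on leaving out any 1 of the 3 K56R libraries or pseudo-wild-type replicate 14, 15 or 16 (0.31 to 0.42). Under plain library totals the change was 0.59. The median change of its 12 neighbours on each side was 0.24 in the same comparison, and its part in the TIS11 value was not tested. In symmetric K18R TIS11 was 37.4, 35.8 and 57.0 CPM, the highest being replicate 5, and was not called (0.35 ± 0.14, edgeR adjusted p = 0.188, and 0.24 without that library).

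In batch 10 the members gave 1 call with edgeR as reported. FIT3 in the K37Q asymmetric strains was 203, 155 and 196 CPM with H3X and 179, 158 and 134 CPM with H3Y, against a pseudo-wild-type whose libraries were 301, 214, 242, 239, 883 and 140 CPM. The mutant libraries lay at the low end of the pseudo-wild-type range and overlapped it. FIT3 fell by 0.99 ± 0.29 (log2, edgeR adjusted p = 0.00762), where 41.5% of all genes were called. Without pseudo-wild-type replicate 12 the change was -0.42 and was not called (adjusted p = 0.0961), so the call and the size of the change rest on that library. With the slope on feature length the call was also lost (-1.31, adjusted p = 0.183). Without K37Q H3X replicate 3, which stands apart by its scaling factor, the change was -1.03 (adjusted p = 0.0128). DESeq2 also called FTR1 in the K37Q asymmetric strains (0.31, adjusted p = 0.0430).

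Symmetric K37Q had the lowest 3′-end library of the batch for all 7 members, replicate 5 for FIT2 (81.1 CPM) and replicate 3 for FET3 (73.8), FTR1 (209), FIT3 (108), ARN1 (59.3), SIT1 (95.5) and TIS11 (21.2). The other symmetric K37Q libraries of FET3 were 168 and 103 CPM, so the strain spread over most of the range of the batch. With edgeR 0 of 7 members were called in symmetric K37Q, where 0.1% of all genes were called. DESeq2 called 0, and FIT3 and SIT1 had an unadjusted p under 0.05. In symmetric R2K and symmetric K36Q edgeR and DESeq2 called 0 of 7 members, edgeR called 0% of all genes, and 1 member each (FIT2 and TIS11) had an unadjusted p under 0.05. FIT2 was 164, 183 and 233 CPM in symmetric R2K against 97.1 to 229 CPM, overlapping in 2 of 3 libraries (0.46 ± 0.23, edgeR adjusted p = 0.318). TIS11 in symmetric K36Q was 28.02, 27.4 and 25.1 CPM, below every pseudo-wild-type library (28.6 to 54.2), with a change of -0.43 ± 0.19 that was not called (edgeR adjusted p = 0.533).

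Between the symmetric strains of batch 10, edgeR as reported and DESeq2 called 0 members. With the slope on feature length in the fit, edgeR called FIT2, FET3 and SIT1 in R2K against K37Q. The changes were 1.02, 0.67 and 0.65 (adjusted p = 0.0116, 0.0470 and 0.0297). R2K against K36Q (3.73% of all genes called) had 4 at an unadjusted p under 0.05, R2K against K37Q (0.1%) had 4, and K36Q against K37Q (0.0803%) had 2. FIT2 was the closest to the threshold in R2K against K37Q, at 0.90 ± 0.27 (edgeR adjusted p = 0.120), with R2K at 164 to 233 CPM and K37Q at 81.1 to 130 CPM without overlap.

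**Figure D3:**
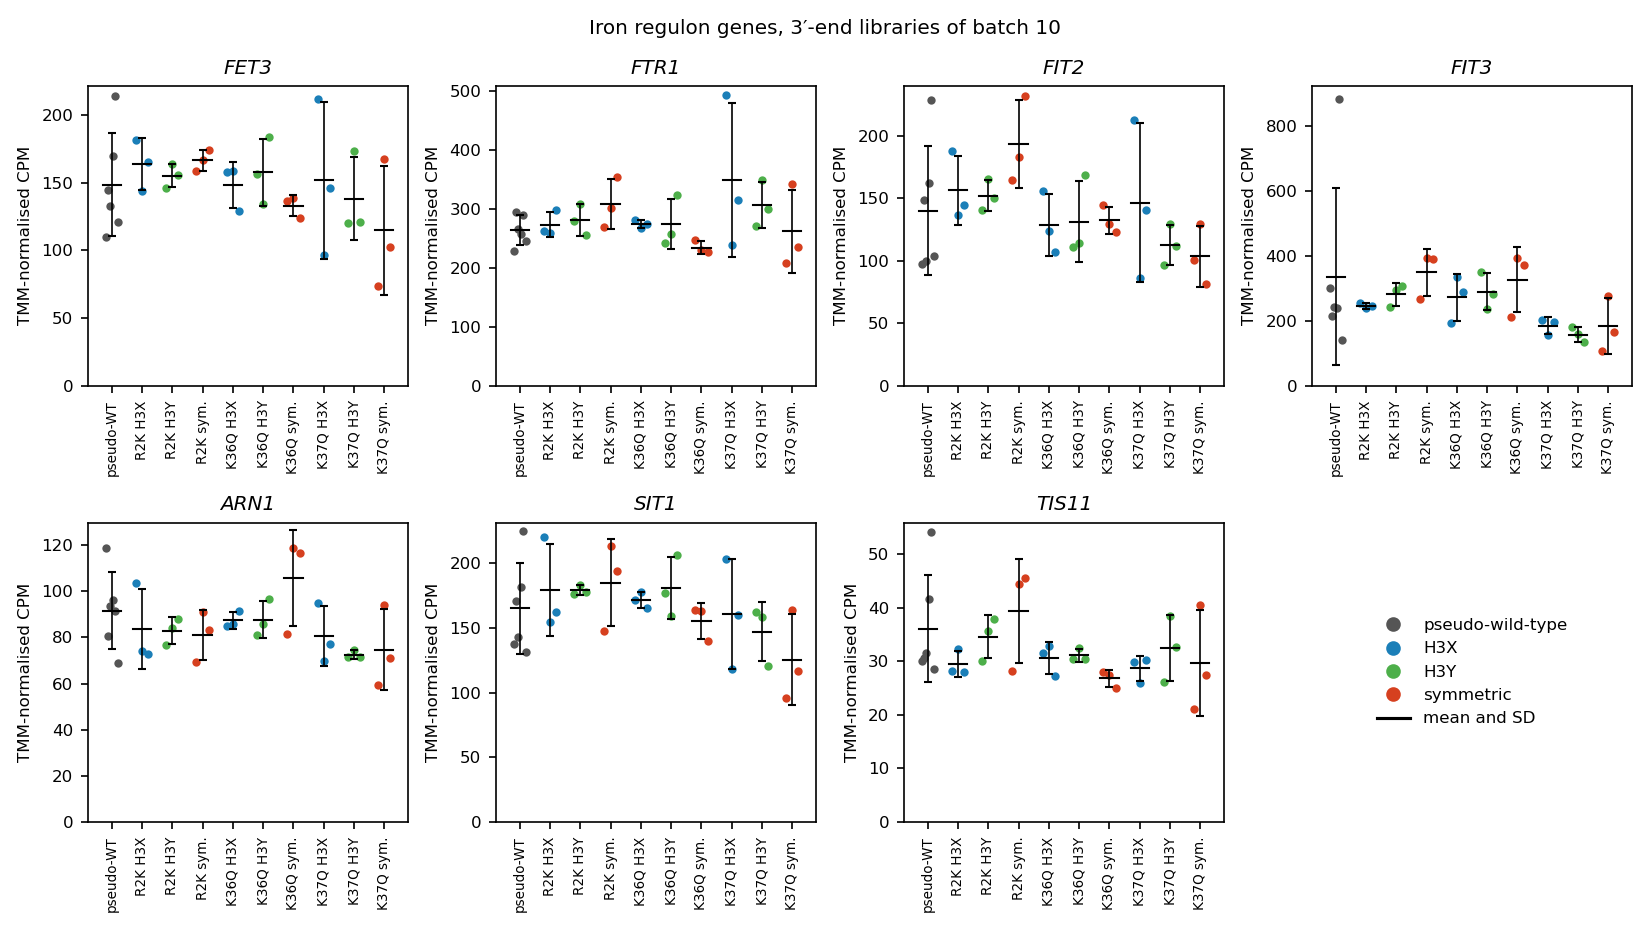
TMM-normalised CPM of the 7 members in the 33 3′-end libraries of batch 10 (y axis), 1 panel per gene and 1 column per strain, with points for libraries and bars for the strain mean and SD. Pseudo-wild-type replicate 12 stands at 883 CPM for FIT3, with the next library at 301.

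The full-length libraries were fitted together with the sequencing batch as a term, so a fold change there is adjusted for batch and a plain mean is not. Of 104 member tests of symmetric strains against the pseudo-wild-type 7 passed, of 144 tests of asymmetric strains 2 passed, and of 104 tests of symmetric against asymmetric strains 7 passed, with 18, 19 and 11 at an unadjusted p under 0.05. Of these 16 calls 11 came from K14R. Symmetric K14R also had the highest shares of all genes called, 20.2% against the pseudo-wild-type and 9.39% against the asymmetric strains. Symmetric K14R had 2 libraries, replicate 1 of batch 2 and replicate 2 of batch 7, the latter being the one whose scaling factor stood apart.

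FIT3 was 218 and 1211 CPM in these symmetric K14R libraries, and the pseudo-wild-type library of batch 2 was 128 CPM. FIT2 was 56.9 and 458 CPM, against 27.1. FET3 was 605 and 2095 CPM, against 442. In all 3 genes replicate 2 was more than 3 times as high as replicate 1, and replicate 1 was above the pseudo-wild-type of its own batch. FTR1 was 278 and 731 CPM and FIT1, the lowest mannoprotein gene, was 20.9 and 87.1 CPM, against 196 and 9.40 in the batch 2 pseudo-wild-type.

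Against the pseudo-wild-type 5 of 8 members were called in symmetric K14R, all higher, where 20.2% of all genes were called. The changes were 1.97 ± 0.34 for FIT3 (edgeR adjusted p = 0.00130), 2.29 ± 0.45 for FIT2 (0.00250), 1.57 ± 0.32 for FIT1 (0.00285), 1.23 ± 0.29 for FTR1 (0.00611) and 1.22 ± 0.31 for FET3 (0.00753). Without replicate 2 the same fit gave 0.95, 1.08, 0.60, 0.17 and 0.17, and edgeR called none of the 5 (adjusted p = 1 each). With only batches 2, 3, 4 and 8, which also leaves out replicate 2, they were 0.74, 1.04, 1.13, 0.48 and 0.43, again with none called (adjusted p = 1 each). Without the pseudo-wild-type of batches 3 and 4 the FTR1 and FET3 calls were lost (1.18 and 0.94, adjusted p = 0.0531 and 0.0889), while FIT3 (1.71), FIT2 (1.77) and FIT1 (1.65) were still called. SIT1 did not share the high values of replicate 2, at 402 and 350 CPM (0.14 ± 0.21). ARN1 was 129 and 436 CPM and TIS11 20.6 and 54.1 CPM, neither called. By plain library totals, with no scaling factor, replicate 2 had 649 CPM of FIT3, 246 of FIT2 and 1123 of FET3, and replicate 1 had 228, 59.3 and 632. On that scale replicate 2 was again the higher for each gene, and the FET3 and FTR1 calls were lost.

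Symmetric against asymmetric K14R called 6 of 8 members where 9.39% of all genes were called, the 5 above and ARN1 (0.89 ± 0.29, edgeR adjusted p = 0.0431). The median change of the 12 genes on each side of ARN1 was 0.49 there, and its part in the ARN1 value was not tested. With the replicate number as a block, 2 of the 6, FIT1 and FIT3, were called (1.35 and 1.38). Under plain library totals 0 of the 6 were called, at 0.36 to 0.93. The FET3, FTR1, FIT2 and ARN1 calls were each lost on leaving out any 1 of the 4 asymmetric libraries, and the FIT3 call on leaving out H3Y replicate 1 or H3X replicate 2. Without symmetric replicate 2 FIT3 gave 0.49 and FIT1 0.49, FIT2 gave 0.08, and FET3, FTR1 and ARN1 turned to -0.09, -0.11 and -0.05, with no call. Asymmetric K14R against the pseudo-wild-type called 0 of 8 members with edgeR and DESeq2, where 0.0157% of all genes were called, and FIT2 alone had an unadjusted p under 0.05. FIT3 in those strains was 187 and 229 CPM with H3X and 137 and 316 CPM with H3Y, in each case lower in batch 2 than in batch 7. FIT2 and FIT3 had the same sign in symmetric K14R in both assays. The 3′-end and full-length libraries were separate libraries with no shared controls.

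**Figure D4:**
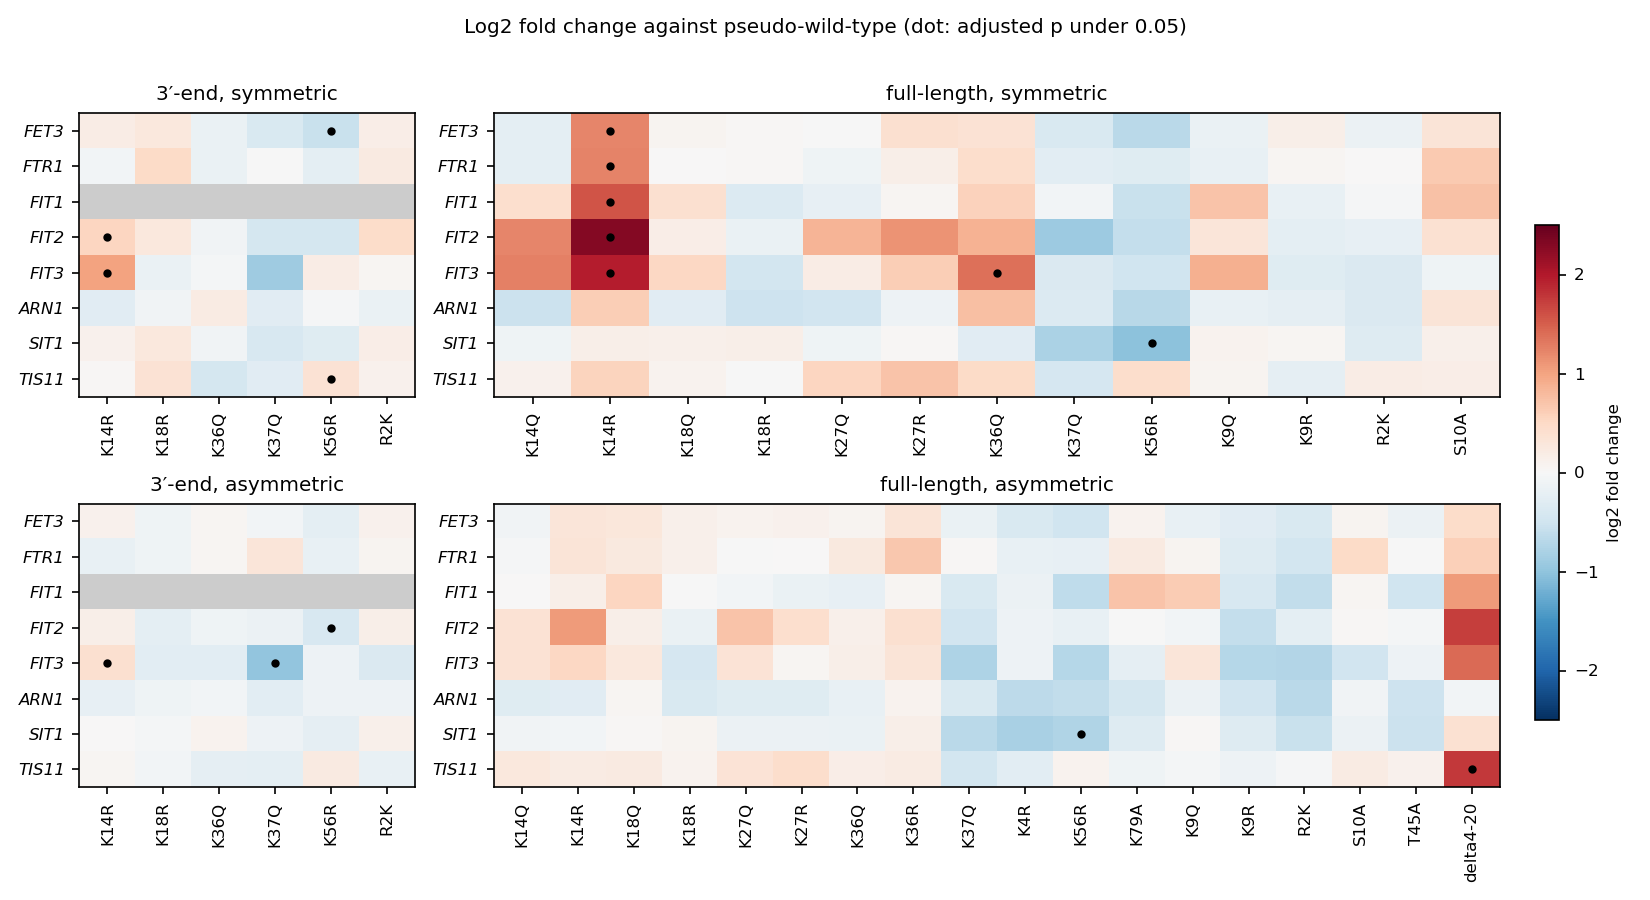
Log2 fold change against the pseudo-wild-type (colour, red higher and blue lower) for each member (rows) and mutant (columns), with symmetric strains in the upper panels and asymmetric strains in the lower, and the 3′-end data at the left and the full-length data at the right. A dot marks an edgeR adjusted p under 0.05 and grey marks FIT1 in the 3′-end panels; in the symmetric K14R columns FIT3 stands at 1.01 in the 3′-end data and FIT2 at 2.29 in the full-length data.

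Outside K14R the full-length calls were few. FIT3 in symmetric K36Q was 326 CPM in batch 3 and 613 CPM in batch 7, above all pseudo-wild-type libraries (99.7 to 302), with 129 CPM in the pseudo-wild-type of batch 3. It rose by 1.38 ± 0.33 (edgeR adjusted p = 0.00879), the 1 member called where 7.37% of all genes were called, and by 1.24 ± 0.32 over the K36Q asymmetric strains (adjusted p = 0.0398), where 1.14% were called. Both calls were lost on leaving out either symmetric library, the first also without the pseudo-wild-type of batches 3 and 4 (1.15) or with only batches 2, 3, 4 and 8 (1.19), and the second on leaving out any 1 of the 4 asymmetric libraries. In the 3′-end data the same strain had FIT3 at 211, 395 and 373 CPM. The first library lay within the pseudo-wild-type range, and the other 2 lay above all pseudo-wild-type libraries except the one at 883 CPM, with a change of -0.04 ± 0.34 that was not called (edgeR adjusted p = 0.974). Without that library, pseudo-wild-type replicate 12, the change was 0.53 and was not called (adjusted p = 0.763).

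SIT1 fell with K56R. It was 137 and 170 CPM in symmetric K56R, 131 and 225 CPM with H3X and 200 and 189 CPM with H3Y, against 289 to 320 CPM in the 5 pseudo-wild-type libraries. All 6 K56R libraries were below all pseudo-wild-type libraries, but batch 7, which holds replicate 2 of each K56R strain, has no pseudo-wild-type library. Low SIT1 values were not particular to K56R. In batch 4 T45A had 169 and 218 CPM, and delta4-20 had 300 and 437 CPM. In batch 7 K37Q had 249, 194 and 176 CPM, and K14R had 310, 448 and 350 CPM. The SIT1 change with K56R was -1.03 ± 0.22 in the symmetric strain (edgeR adjusted p = 0.00607), 1 of 8 members called where 1.8% of all genes were called. It was -0.75 ± 0.18 in the asymmetric strains (adjusted p = 0.0360), 1 of 8 where 0.439% were called. The first call was lost on leaving out either symmetric library, without the pseudo-wild-type of batches 3 and 4 (-0.95, adjusted p = 0.107) and with only batches 2, 3, 4 and 8 (-1.06, adjusted p = 1), the change staying between -1.09 and -0.85 over its 13 alternatives. The second was lost in 9 of 15 alternatives, with changes of -0.94 to -0.61. FET3 in the same symmetric strain was 313 and 363 CPM, below every pseudo-wild-type library (420 to 1068), and was not called (-0.68 ± 0.32, adjusted p = 0.359). ARN1 was 100 and 117 CPM, also below all of them, and was not called (-0.70 ± 0.33, adjusted p = 0.357). Symmetric against asymmetric K56R called 0 of 8 members with edgeR and DESeq2, with 0 at an unadjusted p under 0.05, where 0.0157% of all genes were called.

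TIS11 rose in the strains that lack residues 4 to 20 of the H3 tail on a single copy (delta4-20), each of which had 1 library in batch 4. TIS11 was 75.4 CPM with the deletion on H3X and 54.1 CPM with it on H3Y, against 17.8 CPM in the pseudo-wild-type of the same batch and 16.97 to 41.8 CPM over all 5. It rose by 1.77 ± 0.33 (edgeR adjusted p = 0.0141), 1 of 8 members called where 0.282% of all genes were called. The single libraries are assumed to vary like the other groups, and the call was lost without pseudo-wild-type replicate 3 of batch 4 (1.71, adjusted p = 0.200), without the pseudo-wild-type of batches 3 and 4 (1.48, adjusted p = 0.622) and with only batches 2, 3, 4 and 8 (1.81, adjusted p = 0.563). The FIT genes were not called in these strains. FIT3 was 534 and 204 CPM (1.42 ± 0.41), FIT2 140 and 81.9 CPM (1.73 ± 0.55) and FIT1 36.4 and 20.0 CPM (1.06 ± 0.40), with the H3X strain the higher in each.

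In the full-length comparisons of the other mutants edgeR and DESeq2 called 0 members, where 0% to 0.0941% of all genes were called by edgeR. Batch 9 shares no strain with the other batches, so K56Q was compared with K4A and K4Q, which gave 0 of 8 members, with 2 (FIT1 and FIT3) at an unadjusted p under 0.05, 0 with DESeq2 and 0.0157% of all genes called by edgeR. K18Q H3X replicate 1, which stands apart by its scaling factor, had the highest FET3 (2101 CPM), FTR1 (784 CPM) and ARN1 (516 CPM) of all 98 libraries, while replicate 2 of the same strain had 842, 229 and 171 CPM. By plain library totals replicate 1 had 1179 CPM of FET3.

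The members did not move as 1 block. Over the 66 3′-end libraries, with log2 CPM centred on each batch mean, the 21 pairs of members had Pearson r between 0.07 and 0.83 with a median of 0.41, and 8 pairs were above 0.5. The libraries share their strains and batches, so these values are a description. FET3 and SIT1, a reductive oxidase and a siderophore transporter, were closest (r = 0.83, with 0.90 in batch 10 and 0.77 in batch 11), then FET3 and FIT2 (0.75) and FIT2 and SIT1 (0.70). FET3 and FTR1, the partners in a single complex, had 0.63. FIT2 and FIT3, neighbours on the chromosome, had 0.58, and FTR1 and FIT3 had 0.07. TIS11 had values of 0.57 to 0.66 with FET3, FIT2, FIT3 and SIT1 in batch 10 and 0.00 to 0.17 with them in batch 11. Leaving out 3 libraries, the pair that stood apart by scaling factor and pseudo-wild-type replicate 12, left the FET3 and SIT1 value at 0.83. The FTR1 and FIT3 value rose to 0.18 and the FTR1 and SIT1 value from 0.51 to 0.61. The FIT2 and TIS11 value fell from 0.40 to 0.26.

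**Figure D5:**
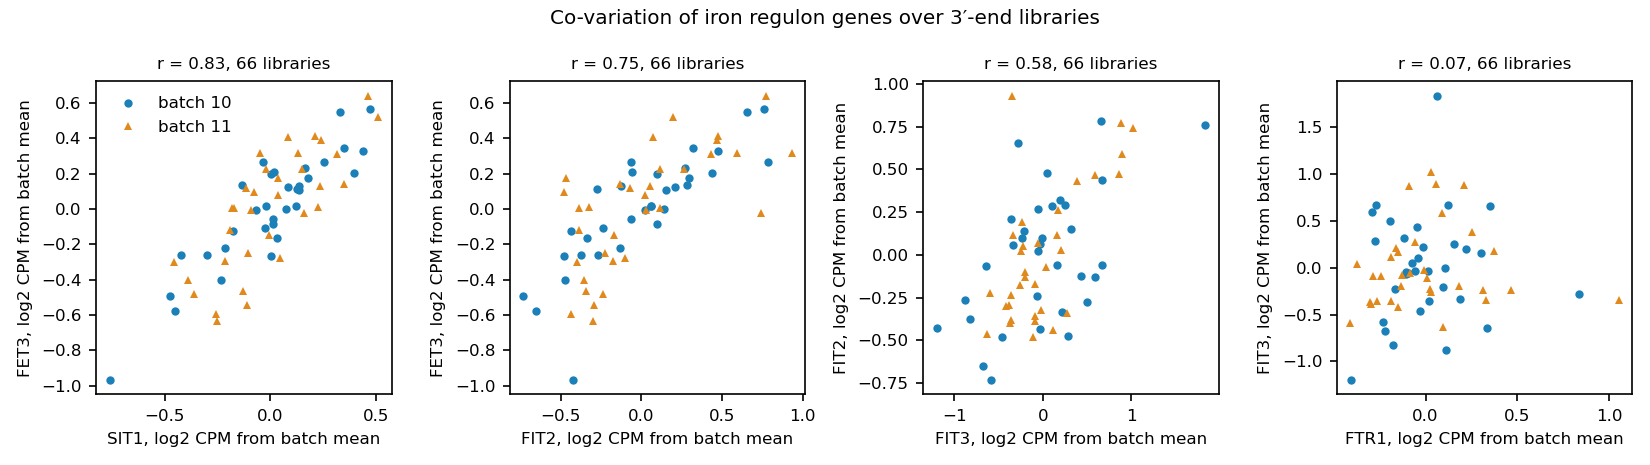
Log2 CPM, as the distance from the batch mean, of 1 member (y axis) against another (x axis) in the 66 3′-end libraries, 1 point per library, with circles for batch 10 and triangles for batch 11. The panels run from FET3 against SIT1 (r = 0.83) over FET3 against FIT2 (0.75) and FIT2 against FIT3 (0.58) to FIT3 against FTR1 (0.07), where the points show no slope.

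Among 4961 genes, the 3 with the pattern most like each member were taken by the same r, and the first 2 of them were other members for FET3, FIT2 and SIT1. For FET3 they were SIT1, FIT2 (0.75) and MDH2 (0.65), a malate dehydrogenase gene. For SIT1 they were FET3, FIT2 and MDH2 (0.69), and for FIT2 they were FET3, SIT1 and SBH1 (0.66). FIT3 was most like FRE5 (0.71), a gene related to the ferric reductases that lies next to it on chromosome XV, followed by BCD1 (0.68) and STE23 (0.61). FTR1 was most like UTR4 (0.83), NCP1 (0.83) and TEF2 (0.82), with FET3 at rank 405. Symmetric K18R replicate 5 and K37Q H3X replicate 3, which stand apart by scaling factor, had the highest centred FTR1 values (1.05 and 0.83). The ranks were taken over all 66 libraries, with these included. ARN1 was most like SMP1 (0.61), NGL2 (0.57) and MET30 (0.56). TIS11 was most like SCM4 (0.62), HMX1 (0.54), the heme oxygenase gene, and HXT3 (0.53).

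The other iron genes were read in the 3′-end symmetric strains from 4 lists. Of 6 other uptake genes tested in symmetric K14R, FRE1 and FRE5 rose and ENB1 fell, 3 of 6 called where 36.2% of all genes were called. FRE1, a ferric reductase gene, was 270 ± 15.1 CPM against 185 ± 37.2 (0.54 ± 0.12, edgeR adjusted p = 0.00119). FRE5 was 8.34 ± 2.5 CPM against 3.19 ± 1.02 (1.37 ± 0.31, adjusted p = 0.00183), both without overlap. The FRE5 level is far below that of TIS11, which was at least 23.2 CPM in batch 11, so the FRE5 change rests on few counts. ENB1, an enterobactin transporter gene, was 218 ± 24.5 CPM against 271 ± 45.2 (-0.31 ± 0.11, adjusted p = 0.0257). The median over the 6 genes was 0.17, beside 0.01 over all genes tested. In symmetric K56R FRE1 (0.39 ± 0.12, adjusted p = 0.0193) and FRE2 (0.69 ± 0.16, adjusted p = 0.00281) rose and 0 fell, 2 of 6 called where 23.9% of all genes were called, with a median of 0.30 beside 0.05 over all genes.

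Of 12 iron-using enzyme genes in symmetric K14R, 3 fell and 0 rose, with a median of -0.23, a share below the 36.2% of all genes called. BIO2, the biotin synthase gene, was 66.4 ± 2.37 CPM against 134 ± 19.4 (-1.01 ± 0.16, edgeR adjusted p = 0.000125). HEM15, the ferrochelatase gene, fell by 0.59 ± 0.11 (adjusted p = 0.000373) and GLT1, the glutamate synthase gene, by 0.26 ± 0.09 (adjusted p = 0.0199). In symmetric K56R ACO1, the aconitase gene, was the 1 of 12 called where 23.9% of all genes were called, at 573 ± 38.8 CPM against 826 ± 86.6 (-0.53 ± 0.11, adjusted p = 0.000947). Of 8 regulator genes, GRX4, a glutaredoxin that restrains Aft1, fell by 0.46 in symmetric K14R (adjusted p = 0.00569) and by 0.40 in symmetric K56R (adjusted p = 0.0232). MSN5, the exportin of Aft1, rose by 0.39 in both (adjusted p = 0.0196 and 0.0306). These were 2 of 8 in each strain, beside 36.2% and 23.9% of all genes.

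Of 13 genes of intracellular transport and recycling, FET5 (-0.30 ± 0.09, edgeR adjusted p = 0.00936) and MRS4 (-0.50 ± 0.18, adjusted p = 0.0321) fell in symmetric K14R, 2 of 13 where 36.2% of all genes were called. In symmetric K56R the mitochondrial iron carrier gene MRS3 rose (0.34 ± 0.10, adjusted p = 0.0118) and ISU2 fell (-0.36 ± 0.12, adjusted p = 0.0362), 2 of 13 where 23.9% of all genes were called, the median change of the genes around MRS3 being 0.35. In symmetric K18R ATX1, the copper chaperone gene, was the 1 gene called in these 4 lists, where 1.81% of all genes were called. It was 156, 114 and 1123 CPM against 99.9 to 155 CPM in the pseudo-wild-type (1.76 ± 0.38, edgeR adjusted p = 0.0173). The high library is replicate 5, which stands apart by its scaling factor, and without it the change was 0.11 and was not called (adjusted p = 0.999). In symmetric R2K, K36Q and K37Q edgeR called 0 genes of the 4 lists. At an unadjusted p under 0.05 there were 0 uptake, 2 intracellular, 1 regulator and 5 iron-using genes in R2K, 1, 1, 0 and 0 in K36Q, and 1, 3, 0 and 3 in K37Q. DESeq2 was not run for these lists.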

How the data were processed

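RNA was measured in 98 full-length and 66 3′-end libraries. The authors deposited raw read counts per feature, made per the file headers with featureCounts 1.4.6-p2 at a minimum mapping quality of 30. Full-length reads were counted as reverse-strand pairs with duplicates ignored, and 3′-end reads on the same strand with duplicates kept, per the file headers. The submitters' processing notes name TopHat2 2.0.12, Bowtie2 and sacCer3 without giving their roles. Duplicate reads without molecular identifiers are not independent molecules. Depth is given with the results.

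The 8 genes and the 4 further iron lists were chosen with earlier results of these data known. All genes were fitted with edgeR 4.0.16 (R 4.3.3), quasi-likelihood tests, TMM scaling, filterByExpr and Benjamini-Hochberg adjustment over all genes, which left 4984 genes in batch 10, 4961 in batch 11 and 6376 in the full-length data. Each 3′-end batch was fitted alone, and the full-length libraries together with batch as a term. The fits were also run on simulated data of independent libraries with no batch effects. That run cannot show how the fits handle batches or near-identical libraries. Every member was named, and from the further lists the genes past the threshold. CPM for correlations was log2-transformed with a prior count of 2.

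Alternatives were DESeq2 1.42.0, RLE factors, no filter, a slope on feature length as a covariate, a replicate block, near-identical libraries summed or left out, only the batches with pseudo-wild-type, each library left out in turn and, chosen after seeing the data, plain library totals and, for ATX1, each symmetric K18R library left out. Libraries of the same replicate number deviated together (all 3 r above 0.1) in 2 of 18 pairs of strains, and the labels name no pairing. Sites and names came from the R64 reference, which matched 6008 of 6692 and 5013 of 5013 features.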

Additional observations from a re-analysis of the deposited data

Results flagged for a closer look

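In the 3′-end data FIT3 stood at 883 CPM in pseudo-wild-type replicate 12 of batch 10, far above the nearest of the other 5 libraries (301 CPM) and the median of 240 CPM. In CPM the gap to the nearest library was 0.783 of the whole range, above Dixon's critical value for 6 samples. As log2 distance from the batch mean, replicate 12 was at 1.83, the nearest library at 0.28 and the lowest at -0.82. Dixon's rule was not applied on that scale. Replicate 12 for FIT3 was the 1 flag in 14 groups of 6 libraries tested, where chance flags about 1 group in 20. The same library was also the highest of the 6 for FET3, FIT2, SIT1 and TIS11. Without it the change of FIT3 in the asymmetric K37Q strains was -0.42 and was not called by edgeR (adjusted p = 0.0961).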

How the results depend on the processing

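The 32 called values of single genes were recomputed under each alternative. With DESeq2, with RLE factors and with no filter 31 of 32 kept their direction and their call in each case. Plain library totals moved the median log2 change of all genes, by -0.41 in full-length symmetric K14R, 0.18 and 0.22 in 3′-end symmetric K14R and K56R, and -0.33 in symmetric K18R against K56R. RLE factors moved no median by as much as 0.1. Under plain totals 16 of 32 values kept both, with the slope on feature length 8 of 16, and with 1 library left out 155 of 231. Of 42 3′-end tests of symmetric strains against the pseudo-wild-type, 4 were called as reported and 2 with symmetric K56R replicates 3 and 4 summed. For asymmetric strains 3 became 1 with the slope on feature length and 7 under plain totals, and for symmetric against asymmetric strains 0 became 1 with the slope and 2 with DESeq2. In the full-length data the 2 asymmetric calls became 1 under plain totals, and 0 without the pseudo-wild-type of batches 3 and 4 or with only batches 2, 3, 4 and 8. The 7 symmetric calls became 3 and 0 in those same settings. The 7 symmetric against asymmetric calls became 2 under plain totals and 3 with the replicate block, which changed no other call and left both 3′-end counts at 0. With each library left out in turn the 3′-end counts ran from 2 to 5 (symmetric), 2 to 4 (asymmetric), 0 to 3 (symmetric against asymmetric), 7 to 10 (between symmetric strains) and 4 to 6 (any strain), with 0 throughout for H3X against H3Y. The full-length counts ran from 0 to 2 (asymmetric), 2 to 9 (symmetric) and 1 to 8 (symmetric against asymmetric). The reversed values were FTR1 in symmetric K14R against K18R with the slope (0.064), 2 values not called as reported, FIT2 in symmetric K18R without K18R replicate 5 (-0.031) and FIT3 in symmetric K36Q without pseudo-wild-type replicate 12 (0.525), and 3 genes in full-length symmetric against asymmetric K14R without symmetric replicate 2. With each library left out in turn that comparison ran from -0.085 to 1.54 for FET3, -0.11 to 1.54 for FTR1 and -0.053 to 1.49 for ARN1, the highest being without symmetric replicate 1. The cause was not tested in any of these. Among the members depth limits FIT1 and TIS11 most, whose lowest libraries held 7 and 15 counts.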
